A study of Homo sapiens with 21 samples.

Results

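The genes described here are 8 transcription factors that define the hepatocyte: HNF4A, FOXA1, FOXA2, FOXA3, CEBPA, NR5A2, ONECUT1 and PROX1. They were found by gene symbol from the Ensembl identifiers of a table of read counts, which lists 37637 features. All 8 were in the table, and all 8 were among the 17951 features with enough counts to be tested. The counts come from HepG2, a human hepatocellular carcinoma cell line, with 21 libraries in 7 groups of 3 cultures. The control group was kept for 24 h in serum-free medium without caffeine, and the other groups for the same time in that medium with caffeine at 0.01, 0.1, 1, 10, 100 or 1000 µM. The labels name no genetic change in any group, and all groups, the control included, had their serum removed at the start of the exposure. The labels call the cultures of a group biological replicates without saying how separately they were grown, so the p-values measure only the spread between these libraries.

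Liver cell identity is held by a small group of transcription factors that bind each other's promoters and those of the genes for plasma proteins, bile acid and lipid enzymes and clotting factors. FOXA proteins open closed chromatin, HNF4A is the nuclear receptor on which most hepatocyte genes depend, and CEBPA favours the mature, metabolic state over growth. ONECUT1 and PROX1 act early in liver development and persist in the adult organ, and NR5A2 drives bile acid and cholesterol genes.

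The libraries held 23502519 to 44815552 counts and did not fall apart by dose alone. On the levels of 13 mitochondrial mRNAs they formed 3 sets, which the labels do not mention. The 11 libraries of set A were those of the control, 0.01 and 0.1 µM groups with 1 µM replicates 1 and 2. The 7 of set B were 1 µM replicate 3, the whole 10 µM group, 100 µM replicate 2 and 1000 µM replicates 1 and 2. The 3 of set C were 100 µM replicates 1 and 3 with 1000 µM replicate 3. Every control was thus in set A and every library at 10, 100 and 1000 µM in another set, so a difference of these doses from control and a difference between sets can be separated only through replicate 3 at 1 µM. Results are therefore given from the fit without and with the library set as a term, and 1000 µM was also compared with 100 µM, since these doses have libraries in both sets B and C. The 7 hepatocyte markers summed to 27989 to 34224 CPM (counts scaled to the library's size) in the control and 25706 to 26796 CPM at 1000 µM. Of the other liver cell markers 11 were in the table, and they summed to 975 to 1100 CPM in the control and 1440 to 1953 CPM at 1000 µM. Most of that sum was LYZ, at a mean of 943 CPM in the control and 1663 CPM at 1000 µM. The 4 of them with enough counts to be tested all passed at 1000 µM, without the set term (57.6% of all tested features did) and with it (38%). LYZ (log2 fold change 0.82) and PDGFRB (2.50), a pericyte and stellate cell receptor, were higher, and ACTA2 (-0.98), a smooth muscle actin, and CD68 (-0.80), a macrophage protein, were lower. Their part in the results for the 8 factors was not tested. PTPRC, CD3E, VWF, STAB2, COL1A1, COL3A1 and DCN, which define leukocytes, endothelium and fibroblasts, had at most 9 counts (VWF) in any library of these groups.

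In untreated cells the 8 factors spanned a wide range of levels. Per kilobase of exon length, which allows genes to be compared, HNF4A had the highest control level of the 8, at 34.7 ± 5.98 CPM per kb (SD, n = 3). FOXA2 followed with 22.9 ± 2.53, PROX1 with 13.4 ± 1.30, FOXA1 with 11.9 ± 0.330, CEBPA with 11.2 ± 1.33 and FOXA3 with 7.53 ± 0.623 CPM per kb. ONECUT1 had 1.10 ± 0.277 and NR5A2 0.162 ± 0.0402 CPM per kb. Of all tested features, 93.0% lay below HNF4A, 30.8% below ONECUT1 and 10.1% below NR5A2. PROX1, FOXA1 and CEBPA were close to each other, and over the control cultures the range of CEBPA overlapped those of FOXA1 and PROX1. Among 38 liver transcription factors, the 8 included, only XBP1 and NR0B2 had higher mean levels per kb than HNF4A, and NR5A2 had the lowest.

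**Figure D1:**
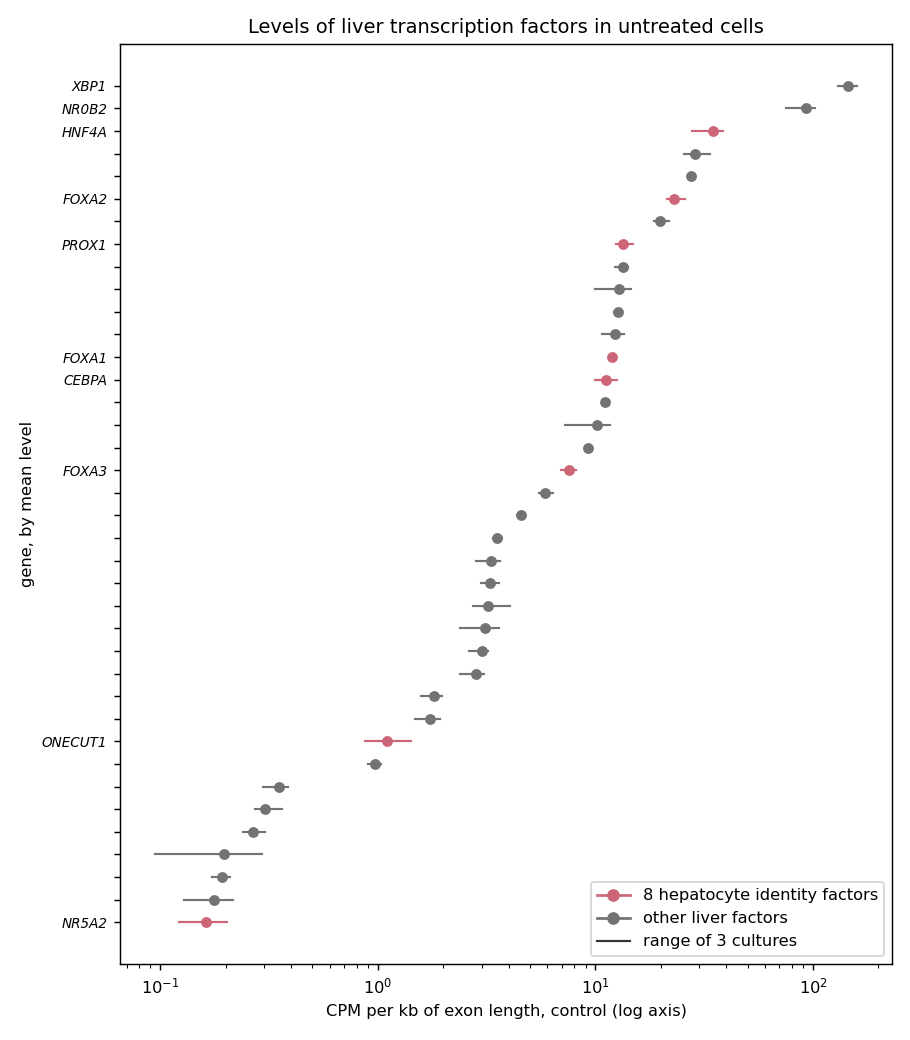
Control level of each liver transcription factor in CPM per kb of exon length on a log axis, with points for means and lines for the range of 3 cultures, and names for the 8 factors and for XBP1 and NR0B2. HNF4A is the highest of the 8 at 34.7 CPM per kb, and NR5A2 the lowest of all at 0.162 CPM per kb.

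The 8 genes did not move as a block under caffeine. Against control, FOXA3 and CEBPA were higher and ONECUT1 lower at both 100 and 1000 µM, FOXA1 was lower at 10 and 1000 µM, and FOXA2 was lower at 1000 µM (quasi-likelihood test of edgeR, threshold 0.05 for the adjusted p). HNF4A, NR5A2 and PROX1 passed at no dose. In bulk RNA, fewer cells that hold a transcript and less of it per cell cannot be told apart. None of the 8 passed at 0.01 µM (background 0.0279% of all tested features), 0.1 µM (0%) or 1 µM (0.106%). At these doses 2, 1 and 3 of the 8 had an unadjusted p under 0.05, as did 2698, 1701 and 2811 of the 17951 tested features. DESeq2's Wald test called none of the 8 there either, and 3.12%, 0.498% and 3.22% of all features to which it gave an adjusted p. It gave none to NR5A2 at these doses, nor to ONECUT1 at 0.1 µM. The 10 µM comparison called 1 member (background 14.8%), the 100 µM comparison 3 (46.6%) and the 1000 µM comparison 5 (57.6%). With the set term these counts became 0 (0.0279%), 1 (17.3%) and 3 (38%). Libraries did not overlap the control's for 4 members at 100 µM (background 51.1%) and for 4 at 1000 µM (56.6%), and 4 did not overlap between these doses (45.1%). These shares lie near those of all tested features, so the counts are no result about these genes, and the values of each gene follow. For 0.01 to 10 µM the share of all tested features without overlap was not computed. Separations from the control given for these doses are descriptions only. In the order of group means, the neighbours whose libraries did not overlap were control and 100 µM for FOXA2, 1000 and 100 µM for FOXA3 and ONECUT1, and 100 and 1000 µM and also 10 and 0.1 µM for CEBPA.

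**Figure D2:**
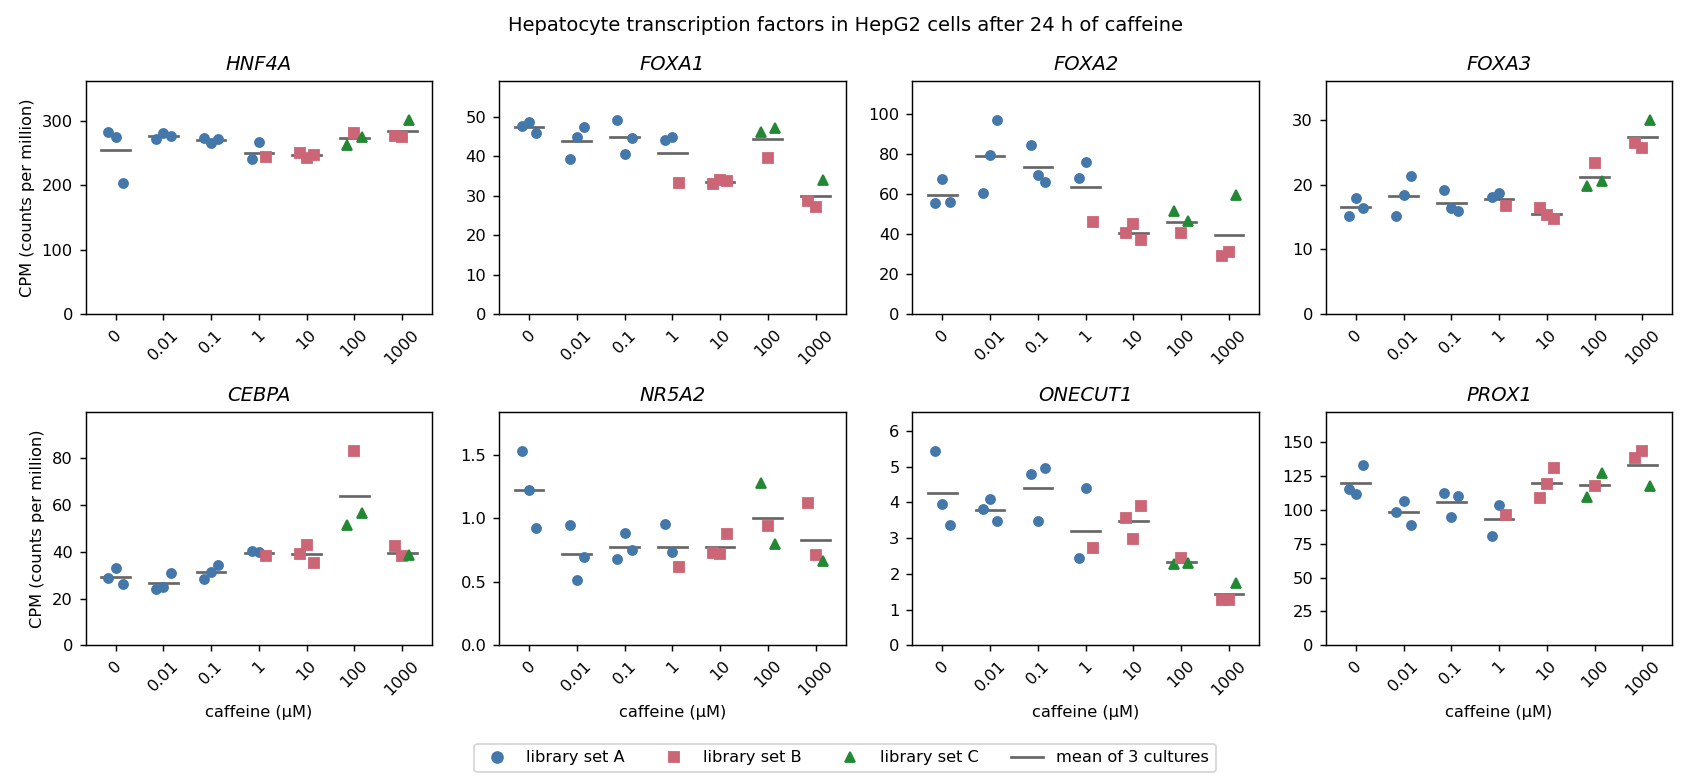
CPM of each factor in every library against caffeine dose, with markers for library sets A, B and C and a line at the mean of 3 cultures. ONECUT1 falls to 1.43 CPM and FOXA3 rises to 27.3 CPM at 1000 µM, CEBPA peaks at 63.7 CPM at 100 µM, and HNF4A stays between 203 and 301 CPM.

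HNF4A (ENSG00000101076.16), the nuclear receptor at the centre of the network, spans chromosome 20 from 44355700 to 44434596 on the plus strand (GRCh38, GENCODE 29). The gene has an upstream promoter, known for use in the developing liver and the pancreas, and a downstream one that is used in the adult liver. The RefSeq table (GRCh38.p14) holds the 250 bases before the start of transcripts from each. They are shown because the counts are per gene and do not tell the promoters' transcripts apart. Capitals mark matches to ATCAAT, a core of the ONECUT site, on either strand.
HNF4A upstream promoter, chr20:44355449-44355698, plus strand: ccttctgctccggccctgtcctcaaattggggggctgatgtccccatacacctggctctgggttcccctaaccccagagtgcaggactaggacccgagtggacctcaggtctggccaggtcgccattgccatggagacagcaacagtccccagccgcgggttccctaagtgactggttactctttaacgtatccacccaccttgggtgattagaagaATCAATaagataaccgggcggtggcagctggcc
HNF4A downstream promoter, chr20:44400989-44401238, plus strand: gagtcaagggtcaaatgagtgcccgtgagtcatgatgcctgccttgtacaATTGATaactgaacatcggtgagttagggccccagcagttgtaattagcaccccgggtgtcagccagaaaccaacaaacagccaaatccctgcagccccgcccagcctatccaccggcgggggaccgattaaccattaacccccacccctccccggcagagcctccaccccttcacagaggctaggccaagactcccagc
The upstream window holds ATCAAT once, 33 to 28 bases before the start, and the downstream window holds it once on the opposite strand, 200 to 195 bases before the start. Of 35116 RefSeq promoter windows of this length, 5.58% hold ATCAAT.

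HNF4A ranged from 203 to 301 CPM over the 21 libraries, the narrowest range of the 8 relative to its level. It stood at 283, 275 and 203 CPM in the control cultures, and replicate 3 was the lowest of all 21 libraries. At 0.01 and 0.1 µM the means were 276 ± 4.17 and 270.2 ± 4.17 CPM (SD, n = 3). The 1 and 10 µM groups had 250.4 ± 13.8 and 246 ± 3.56 CPM, and the 100 and 1000 µM groups 273 ± 9.44 and 284 ± 14.7 CPM. No neighbours in the order of these means were free of overlap. The log2 fold change at 1000 µM was 0.16 (SE 0.09, adjusted p = 0.139). Adding the set term gave 0.21. Without the set term, leaving out control replicate 1 gave 0.24, with an adjusted p of 0.0448, and leaving out control replicate 3 gave 0.03 (adjusted p = 0.735). HNF4A-AS1, an antisense RNA whose span overlaps the gene but which shares no exon base with it, was at 25.9 ± 1.55 CPM in the control and 9.84 ± 1.82 CPM at 1000 µM (log2 fold change -1.40, adjusted p = 5.78e-05). With the set term its value was -0.33 (adjusted p = 0.197).

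FOXA1 (ENSG00000129514.6), a pioneer factor of liver and breast, lies on chromosome 14 from 37589984 to 37596059, minus strand. Its level in the control was 47.5, 48.5 and 45.9 CPM. At 0.01 and 0.1 µM it ran from 39.3 to 49.2 CPM, and at 1 µM it was 44.2, 44.8 and 33.3 CPM, the last being the library of set B. The 10 µM group was at 33.0, 33.9 and 33.8 CPM, all below every control. At 100 µM FOXA1 was at 46.1, 39.7 and 47.1 CPM, and here too the set B library, replicate 2, was the lowest. Its mean was lowest at 1000 µM, with libraries at 28.7, 27.1 and 34.0 CPM that overlapped those at 10 µM.

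The call for FOXA1 at 10 µM rested on libraries of another set than the control. The log2 fold change was -0.50 (SE 0.12, adjusted p = 0.0101) without the set term and -0.08 (adjusted p = 1) with it. At 1000 µM the values were -0.66 (SE 0.12, adjusted p = 7.48e-05) and -0.33 (SE 0.14, adjusted p = 0.0732). Within sets the 1000 µM libraries were lower than those at 100 µM both times, by a log2 difference of -0.51 (set B) and -0.46 (set C). The test of 1000 against 100 µM gave -0.57 (SE 0.12, adjusted p = 0.000619), and -0.48 (adjusted p = 9.12e-05) with the set term.

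FOXA2 (ENSG00000125798.14), the pioneer factor tied to bile acid and glucose metabolism, lies on chromosome 20 from 22581005 to 22585455, minus strand. Control cultures had 55.7, 67.3 and 56.2 CPM. The highest library was replicate 3 at 0.01 µM with 97.0 CPM, beside 60.5 and 79.4 CPM in its group. The level was 84.6, 69.2 and 65.8 CPM at 0.1 µM, and 68.2, 76.2 and 46.0 CPM at 1 µM. All libraries at 10 µM (36.96 to 44.9 CPM) and at 100 µM (40.4 to 51.7 CPM) were below every control, but neither dose passed. The log2 fold change was -0.55 (adjusted p = 0.126) and -0.37 (adjusted p = 0.213), and 0.10 and -0.14 with the set term. At 1000 µM the level was 29.1 and 30.9 CPM in the set B cultures but 59.2 CPM in replicate 3, of set C.

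Through replicate 3 the 1000 µM group overlapped the control. The FOXA2 log2 fold change at 1000 µM was -0.59 (SE 0.24, adjusted p = 0.0431), but -0.22 (SE 0.30, adjusted p = 0.611) with the set term. Without replicate 3 at 1000 µM it became -0.998 (adjusted p = 0.000456). The call was lost with no filter on low counts (adjusted p = 0.122) and with only the control and 1000 µM groups in the fit (adjusted p = 0.102). Against 100 µM the 1000 µM libraries were lower in set B (-0.43) and higher in set C (0.27). The FOXA2 count has a further limit, as its exons share 70 bases with ENSG00000283932 on the same strand, which the authors' counting may have split. That feature had 67.6 ± 15.2 CPM in the control. The sum of both features was 127 ± 12.3 CPM in the control and 104 ± 46.6 CPM at 1000 µM, where replicate 3 had 158 CPM. At 10 and 100 µM the sum was 121 ± 8.81 and 135 ± 16.0 CPM. Its ranges there, 112 to 130 and 117 to 146 CPM, overlapped that of the control, 117 to 141 CPM.

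FOXA3 (ENSG00000170608.3), the FOXA member expressed from the embryonic gut into adult liver, lies on chromosome 19 from 45863989 to 45873797, plus strand, and CEBPA (ENSG00000245848.3) on the same chromosome from 33299934 to 33302564, minus strand. These were the members that rose. Windows for both were in the RefSeq table, and a 30-base stretch of each is shown because it holds a TATA box, the letters TATAAA in capitals, at the same place, 30 to 25 bases before the RefSeq start. Both starts lie inside the GENCODE 29 spans given above, as do the whole FOXA3 stretch and most of the CEBPA one.
FOXA3, chr19:45864290-45864319, plus strand: cccggcTATAAAgcgtggccgcctcccgcg
CEBPA, chr19:33302541-33302570, minus strand: gccgggTATAAAagctgggccggcgcgggc
TATAAA stands at this place on the gene's strand in 195 of 35116 promoters (0.555%), and anywhere in the 250 bases on either strand in 10.7%. The match is a description of the sequence only.

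FOXA3 rose at the highest doses. Its control level was 15.2, 17.9 and 16.4 CPM, and from 0.01 to 10 µM it stayed between 14.7 and 21.3 CPM. At 100 µM it was 19.7, 23.3 and 20.5 CPM and at 1000 µM 26.4, 25.7 and 29.97 CPM. Neither group overlapped the control, and they did not overlap each other. Log2 fold changes were 0.36 (SE 0.12, adjusted p = 0.0166) at 100 µM and 0.73 (SE 0.12, adjusted p = 2.83e-05) at 1000 µM. With the set term they were 0.51 (adjusted p = 0.126) and 0.87 (SE 0.21, adjusted p = 0.00322). The call at 100 µM was also lost without control replicate 1 or without 100 µM replicate 2 (adjusted p = 0.0793 and 0.0804). Between 10 and 1000 µM the difference was 0.82 (adjusted p = 8.27e-06).

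CEBPA, the factor of mature hepatocyte metabolism, peaked at 100 µM. It was at 28.7, 33.2 and 26.3 CPM in the control and at 24.3 to 34.5 CPM at 0.01 and 0.1 µM. At 1 µM (40.1, 40.0 and 38.4 CPM) and 10 µM (39.0, 42.9 and 35.3 CPM) every library was above every control, in sets A and B alike, but the adjusted p was 0.176 and 0.0642. With the set term the log2 fold change at these doses was 0.45 (adjusted p = 0.113) and 0.47 (adjusted p = 0.987). The 100 µM cultures had 51.4, 83.1 and 56.6 CPM and the 1000 µM cultures 42.4, 38.2 and 38.5 CPM. The log2 fold change was 1.12 (SE 0.15, adjusted p = 5.41e-06) at 100 µM and 0.43 (SE 0.15, adjusted p = 0.0164) at 1000 µM. With the set term both calls were kept, at 1.39 (adjusted p = 0.00039) and 0.61 (adjusted p = 0.0382). The fall from 100 to 1000 µM was -0.68 (SE 0.15, adjusted p = 0.00081), and the within-set differences were -1.05 (set B) and -0.49 (set C). Without 100 µM replicate 2, the highest library, the fall was -0.44 (adjusted p = 0.00647).

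The call for CEBPA at 1000 µM was the less firm one. It was lost without control replicate 1 (0.41, adjusted p = 0.0514), control replicate 3 (0.36, 0.0682) or 1000 µM replicate 1 (0.38, 0.0624). CEBPA has no introns and overlaps antisense loci, of which ENSG00000267580.1 shares 659 exon bases with it. That locus had 0 counts in every library from the control to 10 µM and in replicate 2 at 100 µM, 73 and 113 counts in the other 100 µM libraries, and 39, 43 and 64 counts at 1000 µM. Whether the counting used strand is not given in the sources used here, and the part of this locus in the CEBPA counts was not tested.

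ONECUT1 (ENSG00000169856.8), also known as HNF6, spans chromosome 15 from 52756989 to 52791078, minus strand. It was the member with the largest fall, and the window before its RefSeq start is shown for that reason. That start lies inside the GENCODE 29 span of the gene, and the window overlaps none of its exons.
ONECUT1, chr15:52790337-52790586, minus strand: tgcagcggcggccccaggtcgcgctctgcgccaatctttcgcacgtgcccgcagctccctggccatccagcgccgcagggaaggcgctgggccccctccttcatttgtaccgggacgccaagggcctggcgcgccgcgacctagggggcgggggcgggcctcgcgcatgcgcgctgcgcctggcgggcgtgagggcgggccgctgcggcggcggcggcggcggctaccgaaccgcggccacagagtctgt
Of these 250 bases 76.8% are G or C, against a median of 58% over all windows. The window holds none of the 8 motifs searched on both strands. These were TGTTTAC and also TGTTTGC for forkhead factors, ATCAAT and likewise ATCGAT for ONECUT factors, AAGGTCA for nuclear receptors, TTGCNNAA for C/EBP proteins, TGACGT for CREB and TATAAA for the TATA box. In all 35116 windows their shares run from 0.655% for ATCGAT to 10.7% for TATAAA.

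ONECUT1 was a low transcript that fell with dose. Its libraries held 36 to 178 counts. The control level was 5.44, 3.95 and 3.37 CPM, and the groups from 0.01 to 10 µM ran from 2.44 to 4.95 CPM, overlapping it. At 100 µM ONECUT1 was at 2.29, 2.45 and 2.29 CPM, below every control, and at 1000 µM at 1.28, 1.28 and 1.74 CPM, below every library at 100 µM. Log2 fold changes were -0.86 (SE 0.22, adjusted p = 0.00356) at 100 µM and -1.58 (SE 0.23, adjusted p = 8.44e-06) at 1000 µM. The set term gave -0.61 (adjusted p = 0.345) and -1.30 (adjusted p = 0.0136). The step from 100 to 1000 µM was -0.73 (adjusted p = 0.017), and within sets -0.90 (B) and -0.38 (C). Without 1000 µM replicate 1 or 2 it no longer passed.

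PROX1 (ENSG00000117707.15), a homeobox factor that also restrains NR5A2 and HNF4A activity, spans chromosome 1 from 213983181 to 214041502, plus strand. Control cultures were at 115, 111 and 133 CPM. Means were 98.0 ± 9.03 CPM at 0.01 µM, 106 ± 9.42 at 0.1 µM and 93.4 ± 11.6 at 1 µM, and the libraries at 0.01 µM (98.7, 107 and 88.7 CPM) and at 1 µM (80.7, 103 and 96.2 CPM) were all below the control ones. The adjusted p was 0.249 and 0.152 (unadjusted p = 0.0178 and 0.00456). From 10 µM up the libraries ran from 109 to 143 CPM and overlapped the control. The log2 fold change at 1000 µM was 0.15 (SE 0.11, adjusted p = 0.259). The joint test of all doses did pass for PROX1 (adjusted p = 0.00447, and 0.0213 when the set was a term). PROX1-AS1, transcribed from the opposite strand and sharing 171 exon bases with PROX1, was at 2.23 CPM in the control and 0.720 CPM at 1000 µM (log2 fold change -1.63, adjusted p = 6.78e-07).

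NR5A2 (ENSG00000116833.14), also known as LRH-1, spans chromosome 1 from 200027602 to 200177424, plus strand. It had 16 to 50 counts in each library. The control was at 1.53, 1.22 and 0.920 CPM and the other groups ran from 0.512 to 1.27 CPM, with no group free of overlap with its neighbour in order. All libraries at 0.1 µM (0.680, 0.880 and 0.749 CPM) and 10 µM (0.728, 0.719 and 0.872 CPM) were below every control. At 0.01, 0.1, 1 and 10 µM the log2 fold change was -0.76, -0.67, -0.68 and -0.67, with an unadjusted p of 0.0126, 0.0256, 0.0239 and 0.0256 and an adjusted p of 0.229, 0.463, 0.25 and 0.107. With the set term the values were -0.77, -0.67, -0.54 and -0.22, and none passed. At 1000 µM the log2 fold change was -0.54 (SE 0.28, adjusted p = 0.103), and -0.05 (SE 0.52, adjusted p = 0.959) with the set term. Without the set term and with each library left out it ran from -0.36, without control replicate 1, to -0.84, without 1000 µM replicate 1, and only the latter passed (adjusted p = 0.0308).

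**Figure D3:**
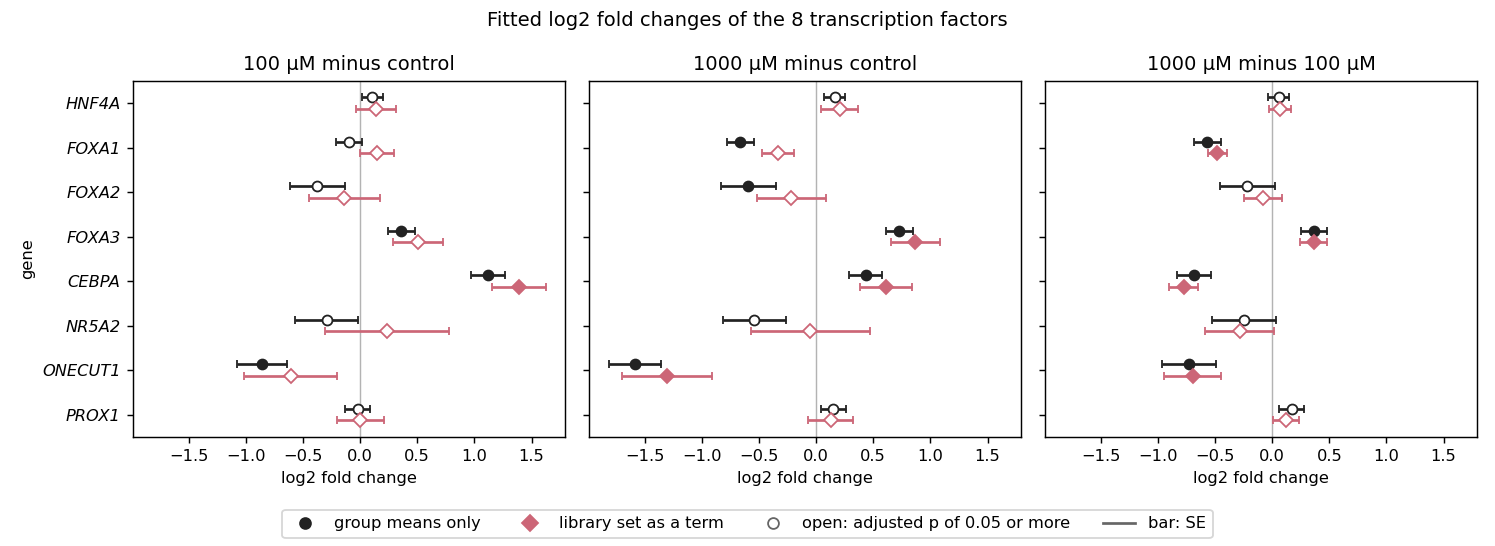
Log2 fold change ± SE of each factor at 100 µM and 1000 µM against control and at 1000 against 100 µM, from the fit of group means (circles) and with the library set as a term (diamonds). Filled symbols passed an adjusted p of 0.05. FOXA3 and CEBPA stay right and ONECUT1 left of 0 in both fits at 1000 µM, while FOXA1 and FOXA2 move toward 0 with the set term.

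The comparison of 1000 with 100 µM is not a difference from the control and can be made within sets. In the fit of all libraries the control libraries still entered the filter, the scaling and the estimate of spread. FOXA1, CEBPA and ONECUT1 were lower and FOXA3 was higher at 1000 µM, so 4 of 8 members passed, against 44% of all tested features. The same 4 passed with the set term (46.3%) and in a fit of these 6 libraries alone with the set term (48.2%), which was chosen after seeing the data. FOXA3, at 0.37 (SE 0.12, adjusted p = 0.0153), no longer passed without 100 µM replicate 1 or 3 or 1000 µM replicate 3, nor with no filter on low counts (adjusted p = 0.0512). The same 4 genes had all 1000 µM libraries on the same side of the 100 µM libraries in both sets, against 62.5% of all tested features. HNF4A differed by -0.03 (set B) and 0.16 (set C), PROX1 by 0.26 and -0.01, and NR5A2 by -0.04 and -0.55.

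**Figure D4:**
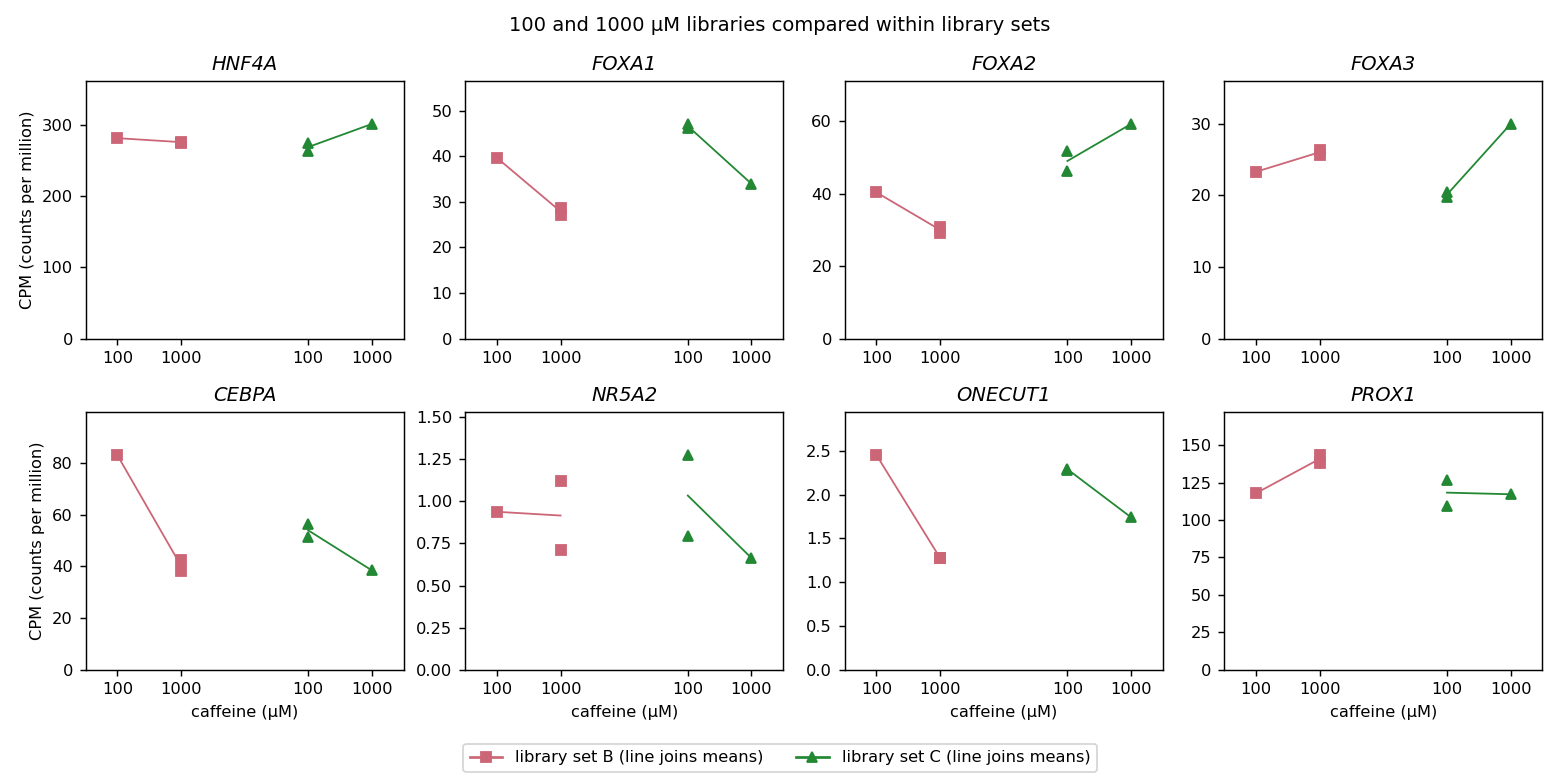
CPM of each factor at 100 and 1000 µM within library sets B (squares) and C (triangles), with lines joining the means. FOXA1, CEBPA and ONECUT1 fall and FOXA3 rises in both sets, while FOXA2 falls by 0.43 on the log2 scale in set B and rises by 0.27 in set C.

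Set B alone also holds 10 and 1000 µM libraries, 3 and 2 of them. There 6 members passed (69.1% of the tested features did). FOXA1 (-0.29), FOXA2 (-0.46) and ONECUT1 (-1.46) were lower at 1000 µM, and HNF4A (0.14), FOXA3 (0.73) and PROX1 (0.22) higher. In the fit of all libraries 2 members passed this comparison, FOXA3 and ONECUT1 (52.1%), and the set term added FOXA1 (59.1%). Across all 7 groups 6 members passed the joint test (73.6%), all but HNF4A and NR5A2, and with the set term 5, without FOXA2 (59.8%). The slope on dose rank passed for 5 (55.3%), with a log2 change per step of -0.22 for ONECUT1, -0.15 for FOXA2, -0.08 for FOXA1, 0.09 for FOXA3 and 0.16 for CEBPA. With the set term the slope passed for none (4.27%), and on linear dose that of CEBPA did not pass (adjusted p = 0.601) while that of PROX1 did (0.0246).

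Over the 21 libraries, FOXA1 and FOXA2 followed each other with a Pearson r of 0.783 on the log2 scale, but 0.269 once each library set was centred at its mean. FOXA3 and ONECUT1 moved against each other, with -0.76 and -0.732 after centring. These coefficients describe libraries that share doses, sets and depth, and no test was made. The genes most like each member, among 10611 named genes averaging 5 CPM or more, were ITSN1 for FOXA1 (r = 0.933), RELA for FOXA2 (0.963) and YBX3 for FOXA3 (0.948). For CEBPA it was ACSS1 (0.902), for ONECUT1 ZNF236 (0.95), for PROX1 ZNF292 (0.939) and for NR5A2 GEN1 (0.626). HIRA (0.883) was among the 3 most like HNF4A. After centring, ITSN1 kept 0.771 and RELA 0.862, while YBX3 had 0.947 and ZNF236 0.94. The closest gene was then another one for every member, such as MAPK1IP1L (0.905) for FOXA1, SURF6 (0.891) for FOXA2 and ZIC2 (0.956) for FOXA3.

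Other liver transcription factors moved in both directions too. Of the 30 tested, 12 rose and 11 fell at 1000 µM, where 28.5% of all tested features rose and 29.1% fell (median log2 fold change 0.09, against -0.01 over all tested features), and 13 in all passed with the set term (43.3%, against 38% of all tested features). At 100 µM 10 rose and 5 fell (23.6% and 22.9% of all tested features). ONECUT2, the close relative of ONECUT1, and TBX3, a repressor that acts in early liver development, were among the 3 with the smallest p-values at 1000 µM, and both rose, ONECUT2 by 1.97 and TBX3 by 1.11 on the log2 scale. At 100 µM ATF5, a factor of the stress response, changed by 1.05. ONECUT2 went from 15.7 ± 1.07 to 61.5 ± 6.55 CPM while ONECUT1 fell. Of the other C/EBP genes on the list, CEBPB was at 1.72 and CEBPD at -1.72 at 1000 µM. They are named here for comparison with CEBPA and were chosen after their values were seen. NR0B2, the repressor of HNF4A and NR5A2, was at 0.11 (adjusted p = 0.467).

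Of the coactivators and corepressors of these factors, 15 were tested. At 1000 µM 6 rose and 1 fell (median 0.20), which is 46.7% of them against 57.6% of all tested features. At 100 µM 5 rose and 1 fell, 40% against 46.6%. With the set term the 1000 µM counts stayed at 6 and 1 (median 0.44), 46.7% against 38% of all tested features. PPARGC1A, the coactivator through which HNF4A drives glucose production, was at 17.97 ± 1.53 CPM in the control, 16.8 ± 1.15 CPM at 100 µM and 71.8 ± 7.95 CPM at 1000 µM. The difference at 1000 µM had an adjusted p of 7.82e-11, and 2.4e-07 with the set term. SIRT1, a deacetylase that acts on PPARGC1A, was at 1.21, and HDAC3, a corepressor enzyme, fell by 0.59 on the log2 scale. At 100 µM SIRT1 was at 0.44 and KDM1A, a histone demethylase, at 0.45, and neither passed with the set term.

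Genes for hepatocyte products, many of them bound by HNF4A, FOXA and C/EBP proteins, changed in both directions. Of 35 tested, 7 rose and 19 fell at 1000 µM (median -0.30), where 28.5% of all tested features rose and 29.1% fell. In the fit with the set term 21 in all passed, 60% against 38% of all tested features. At 100 µM 7 rose and 12 fell, 54.3% against 46.6%. LIPC, hepatic lipase, had the smallest p and went from 68.2 ± 2.99 CPM to 8.54 ± 2.14 CPM at 1000 µM (log2 fold change -3.01). PKLR, the liver pyruvate kinase, changed by -2.26 and FGA, a fibrinogen chain, by -1.77. Among those that rose were G6PC1 (4.14), CPS1 (1.43) and PCK1 (1.33), which encode enzymes of glucose release, the urea cycle and gluconeogenesis and were chosen after their values were seen. At 100 µM LIPC (-2.30) and TAT, the tyrosine-degrading enzyme (-1.15), had the smallest p-values. TAT was at 0.20 at 1000 µM (adjusted p = 0.0482, and 0.0669 with the set term). Of 14 hepatoblast and biliary genes 7 rose and 7 fell at 1000 µM, with AFP at -1.40, KRT19 at -1.58 and IGF2BP1, an RNA-binding protein of fetal tissues, at 0.87, where 57.6% of all tested features passed. With the set term 10 of the 14 passed (38% of all tested features). At 100 µM 4 rose and 5 fell (46.6%). Of 8 mesenchymal genes 4 rose and 1 fell at 1000 µM, 62.5% against 57.6% of all tested features, with SNAI1, a repressor of epithelial genes, at 2.64 from a control level of 0.775 ± 0.206 CPM, and at 100 µM 2 rose and 2 fell (50% against 46.6%).

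**Figure D5:**
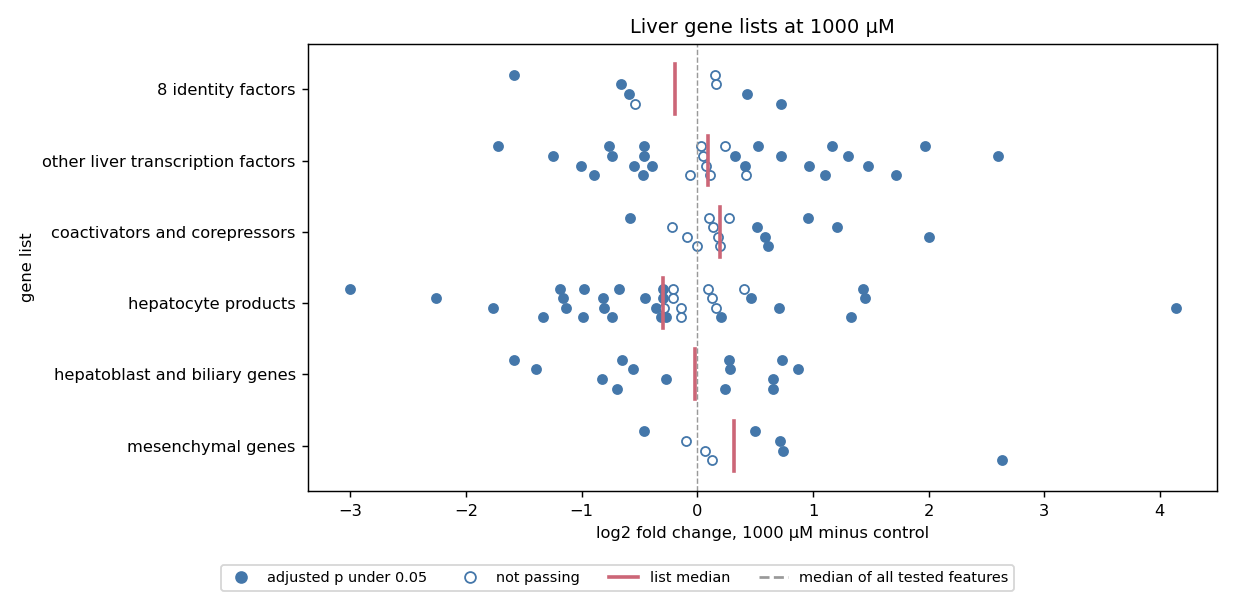
Log2 fold change at 1000 µM against control of each tested gene in the 8 identity factors and 5 gene lists. Filled points passed an adjusted p of 0.05, bars mark list medians and the dashed line the median of all tested features; hepatocyte products have a median of -0.30, and the 8 factors lie on both sides of 0.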

How the data were processed

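Libraries were prepared from RNA purified on poly(dT) beads, per the labels' protocols. The authors deposited raw read counts per feature, without normalization; the submitters' processing notes name HISAT2, DESeq2 and GRCh38, and the counting tool, annotation and use of strand are not given in the sources used here. The table has 21 further per-sample columns, which were not used. The genes, lists and tests were chosen with earlier results of these data known. Symbols were matched for 24852 features, and exon lengths and positions came from GENCODE 29, with which 66.5% of the identifiers agreed in version.

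Features were filtered with filterByExpr by group (17951 kept), normalised by TMM and analysed in R 4.3.3 with the quasi-likelihood F-test of edgeR 4.0.16, 2-sided, in 1 fit over 21 libraries with Benjamini-Hochberg adjustment over all tested features and a threshold of 0.05. CPM used TMM-scaled library sizes, and log2 CPM a prior count of 2. The SE is the absolute log2 fold change over the square root of F. Library sets came from average-linkage clustering on the mitochondrial mRNAs (mean silhouette 0.571).

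The rule for names took all 8 members, up to 3 called genes of each list with the smallest p at 1000 µM and up to 2 at 100 µM, PPARGC1A and NR0B2, and the 3 genes most like each member; of these the closest are given, and some genes that the rule names are not reported here. Alternatives were DESeq2 1.42.0, limma-voom (limma 3.58.1), other scaling and filters, a replicate block, the library set as a term, fewer groups in the fit and each library left out. On simulated counts for 17951 genes, the 1000 µM test recovered 68 of 100 genes changed by 0.75 on the log2 scale and 86 of 100 changed by 1.5, with 8 false calls among 17181. These counts held no difference between library sets and far fewer changed genes than were called in the data. The recovery and the false calls therefore do not measure errors that come from the sets.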

Additional observations from a re-analysis of the deposited data

How the results depend on the processing

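Adding the library set as a term was the alternative that changed most. It left 0 members called at 10 µM (0.0279% of all tested features), 1 at 100 µM (17.3%), 3 at 1000 µM (38%) and 0 for the slope on dose rank (4.27%). Of the other transcription factors tested, 8 were then called at 100 µM (26.7%) and 13 at 1000 µM (43.3%). At 100 µM that fit called 2 coactivators and corepressors (13.3%) and 9 hepatocyte products (25.7%). It also called 5 hepatoblast and biliary genes (35.7%) and 2 mesenchymal genes (25%) there. At 10 µM 2 members were called with total counts in place of TMM (17.9% of all tested features), with DESeq2's Wald test (18.5%) and with a mean of at least 5 CPM (22.5%), and 3 with only control and 10 µM in the fit (22%). CEBPA, which was higher, was gained in each of these fits, and FOXA2, which was lower, in the last. Between 1000 and 10 µM 1 member was called with a mean of at least 5 CPM (61.8%), which drops ONECUT1, and 6 in library set B only. Apart from these constructions, the cause was not tested.

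With each of 21 libraries left out, the 10, 100 and 1000 µM comparisons called 1 to 2, 2 to 3 and 3 to 5 members, where 5.63% to 19.1%, 38.6% to 49.4% and 50.4% to 59.4% of all tested features were called. The 3 at 1000 µM came without control replicate 3 (55.4%). Between 1000 and 10 µM 2 to 3 were called (44.4% to 53.4%), and 5 to 6 for the slope (49.8% to 57.1%). Coactivators and corepressors at 100 µM ranged from 3 to 6, with 3 without 100 µM replicate 3 (38.6%). FOXA2 at 1000 µM ran from -0.41 to -0.998 and lost its call in 9 of 21 such fits. No called member changed its sign under any alternative run, while the set term turned the sign of 4 called list genes at 100 µM and of 1 (RXRA, 0.33 to -0.02) at 1000 µM.

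The replicate block called 0 members at each of the 3 lowest doses (0% of all tested features), 1 at 10 µM (12.7%), 3 at 100 µM (45.1%) and 4 at 1000 µM (56.6%). It called 4 between 1000 and 100 µM (42.7%), 2 between 1000 and 10 µM (51%), 6 jointly (71.7%) and 5 for the slope (53.3%). FOXA2 at 1000 µM (-0.60, adjusted p = 0.0555) was the member it lost. Over 21 pairs of groups the deviations of libraries with the same number had mean correlations of -0.108 to 0.143, and the number was not taken as a pairing. The lowest counts among the members were those of NR5A2 (16 to 50 in each library) and ONECUT1 (36 to 178).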
